A study of Mus musculus with 3 samples.

Results

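The Iroquois genes Irx1, Irx2, Irx3, Irx4, Irx5 and Irx6 were examined in mouse otic placodes that lacked both Fgf3 and Fgf10. They were taken as every non-control probe whose gene name in the scanner files was one of these 6 symbols, which gave 9 of the 41174 probes on the array, 2 for Irx1, 3 for Irx2 and 1 for each of the other genes. The tested embryos were Fgf3-/-;Fgf10-/- (double null) and were set against Fgf3+/-;Fgf10+/- embryos (double heterozygote), so the comparison embryos also carried a null allele of each gene and no wild-type embryo was part of it. Both groups were untreated and were collected at the 4 to 8 somite stage. The placodal ectoderm was dissected by hand, 10 placodes were pooled for each RNA sample, and 3 arrays each carried 1 double null pool labelled with Cy5 and 1 double heterozygote pool labelled with Cy3. The dyes were the same way round on every array, so a dye effect of a probe and the effect of genotype cannot be told apart. Strain is not given in the labels.

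Iroquois genes encode homeodomain transcription factors of the TALE class, in which the homeodomain is lengthened by an extra loop. In mouse they lie in a pair of clusters, IrxA with Irx1, Irx2 and Irx4 on chromosome 13, and IrxB with Irx3, Irx5 and Irx6 on chromosome 8. The family was found in Drosophila, where it controls proneural genes and the pattern of sensory bristles, and in Xenopus Irx1 acts in the neural plate and in the ectoderm at its border, from which placodes arise. Fibroblast growth factors signal through receptor tyrosine kinases and the MAP kinase cascade, and in chick Irx2 is a known substrate of that cascade downstream of Fgf8 at the midbrain-hindbrain border. The question here was whether transcripts of the family differ in level in placodes without Fgf3 and Fgf10.

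The probes that measured these transcripts were 60 bases long. The dimmer Irx1 probe, A_51_P149868, and the dimmest Irx2 probe, A_52_P635312, are printed 5′ to 3′, because the run of 9 bases in capitals was the longest shared by the probes of any pair of Iroquois genes and because 2 reading frames of each hold no stop codon.
Irx1 A_51_P149868: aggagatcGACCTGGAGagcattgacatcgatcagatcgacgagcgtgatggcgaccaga
Irx2 A_52_P635312: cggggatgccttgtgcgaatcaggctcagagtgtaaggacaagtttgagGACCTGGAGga
For the other 7 probes the longest run shared with another member was 6 to 8 bases, so no shared run was longer than 9 of the 60 bases. GC content ran from 25% for the Irx3 probe to 55% for the printed pair, against a median of 41.7% and a 5th to 95th percentile of 35% to 55% over tested probes.

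All 6 genes were detected. Each of the 9 probes was well above background on all 3 arrays in the double null channel and on all 3 in the double heterozygote channel, with no outlier or saturation mark, and all 9 entered the test. The level of no Iroquois gene changed past the threshold in double null placodes: 0 of 9 probes had a limma adjusted p under 0.05, where 1.51% of the 25497 tested probes did (0.29% lower and 1.22% higher). An unadjusted p under 0.05 was reached by 2 of 9 probes (22.2%), against 20.2% of tested probes. One sign on all 3 arrays was seen for 3 of 9 probes (33.3%), against 43.8%. The normalized levels of the groups did not overlap for 0 of 9 probes, against 16.4%. The median of the 9 mean log2 ratios, double null over double heterozygote, was 0.01, and that of all tested probes was also 0.01. In these pools fewer cells that express a gene and less RNA per cell cannot be told apart.

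The 27 single log2 ratios of the family ran from -0.22 to 0.25, with 14 above 0 and 13 below. The 95% intervals of the 9 means together reached from -0.28 to 0.33, that is from a fold of 0.826 to 1.26, so no probe's interval held a drop of more than 17.4% or a rise of more than 25.9% in this fit. With the scanner software's own processed signals in place of the loess-normalized ones, the intervals reached from a fold of 0.742 for the dimmer Irx1 probe to 1.31 for Irx6. The background correction adds 50 units to each signal, which draws the ratio of a dim probe towards 0. The median SD over the 3 arrays was 0.080 for the Iroquois probes, against 0.090 for all tested probes.

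**Figure D1:**
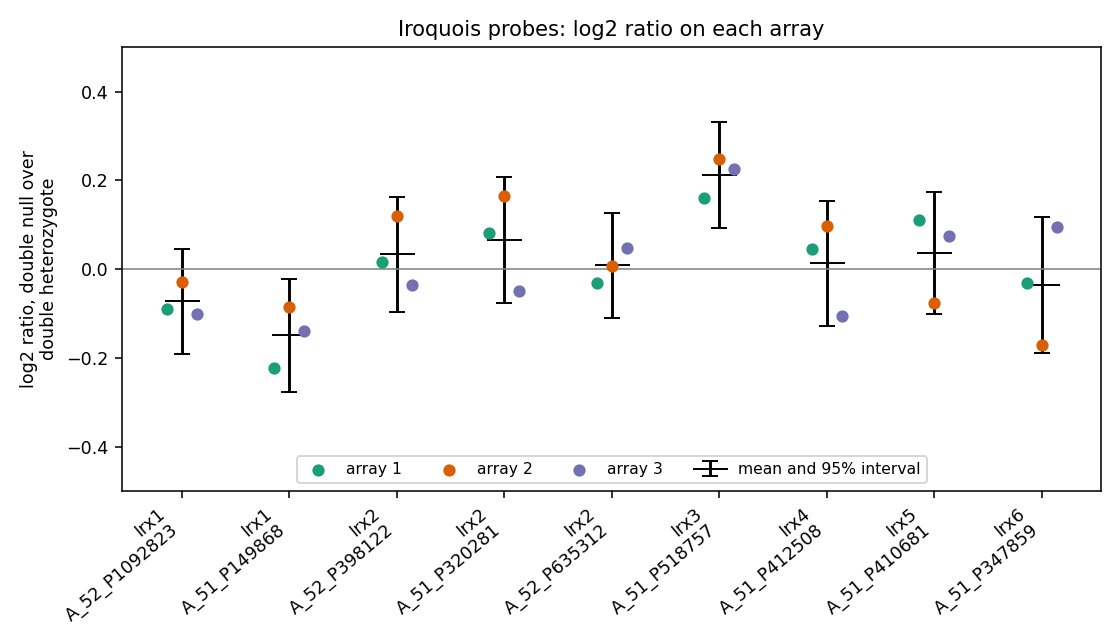
Log2 ratio of double null over double heterozygote for each Iroquois probe. Points are the 3 arrays, bars the mean and its 95% interval from limma. Irx3 lies above 0 and both Irx1 probes lie below 0 on every array, while the other 6 probes have arrays on both sides.

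Irx3, known for patterning of the ventral spinal cord and for its part in the heart's conduction system, gave the family's largest ratio. Its probe, on chr8:90391564-90391623 of the mm7 build, had background-subtracted signals of 2210, 2616 and 2001 units in the double null pools, against 718.5, 926.5 and 738.5 units in the double heterozygote pools. These units are not comparable between the dyes, since the median signals of the channels differed. Over non-control spots, with background not subtracted, the median was 242.5, 227.5 and 242.9 in the double null channel. In the double heterozygote channel it was 110, 118.6 and 129. After normalization the log2 level was 10.53, 10.83 and 10.35 in double null pools, against 10.37, 10.58 and 10.12 in double heterozygote pools. The double null pool was the higher one on each array, yet the groups overlapped, because both pools of array 2 were high and both of array 3 were low. The log2 ratios were 0.16, 0.25 and 0.23, with a mean of 0.21 ± 0.05 (SE, n = 3), a fold of 1.16 with a 95% interval of 1.07 to 1.26. The unadjusted p was 0.00456 and the limma adjusted p was 0.102, so the difference did not pass the threshold. Of all tested probes 7.99% had a mean log2 ratio at least as far from 0. On each array Irx3 had the highest ratio of the 9 probes, the next being 0.11, 0.16 and 0.096.

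Irx1 was measured by a pair of probes with ratios below 0 on all 3 arrays. The brighter probe, A_52_P1092823, is placed by the files at chr13:68887509-68887548, an interval of 40 bases for a 60 base probe. Its log2 level was 14.19, 14.16 and 14.18 in double null pools, against 14.28, 14.18 and 14.28 in double heterozygote pools. The log2 ratios were small, at -0.089, -0.028 and -0.10, and the mean of -0.07 ± 0.05 (SE, n = 3) had a limma adjusted p of 0.452. The dimmer probe, A_51_P149868, at chr13:68889116-68889175, had log2 levels of 8.14, 8.16 and 7.94 in double null pools, against 8.37, 8.24 and 8.08 in double heterozygote pools. Its log2 ratios were -0.22, -0.086 and -0.14. The mean of -0.15 ± 0.05 (SE, n = 3) is a fold of 0.902 with a 95% interval of 0.826 to 0.985. The unadjusted p was 0.0275 and the limma adjusted p 0.194. From the processed signals the same probe's mean was -0.24 ± 0.07, with an adjusted p of 0.246. The Irx3 log2 ratio exceeded that of the brighter Irx1 probe by 0.25, 0.28 and 0.33 on the 3 arrays, and that of the dimmer one by 0.38, 0.33 and 0.37. These members were singled out after their values were seen, so the gap is given as a description, with no test.

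Irx2, the neighbour of Irx1 in the cluster, was measured by 3 probes whose means were all close to 0. The brightest, A_52_P398122 at chr13:69564443-69564502, had log2 levels of 13.14, 13.17 and 13.16 in double null pools, against 13.12, 13.05 and 13.19 in double heterozygote pools. Its mean log2 ratio was 0.03 ± 0.05 (SE, n = 3), with a limma adjusted p of 0.763. The probe A_51_P320281 is placed across 662 bases, at chr13:69563624-69564285, and its log2 ratios were 0.081, 0.16 and -0.049. Its mean was 0.07 ± 0.06 (SE, n = 3), with a limma adjusted p of 0.568. These first 2 probes shared their order over arrays, with array 2 highest and array 3 below 0. The dimmest, A_52_P635312 at chr13:69562330-69562389, had log2 ratios of -0.031, 0.0072 and 0.049, the opposite order for arrays 2 and 3. Its mean of 0.01 ± 0.05 (SE, n = 3) had a limma adjusted p of 0.944 and a 95% interval of -0.11 to 0.13.

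Irx4, the third gene of the IrxA cluster, is known for fixing the identity of the heart's ventricles. Its probe, A_51_P412508 at chr13:70200755-70200814, had log2 levels of 8.47, 8.31 and 8.17 in double null pools, against 8.42, 8.21 and 8.28 in double heterozygote pools. The double null pool was the higher one on arrays 1 and 2 and the lower one on array 3. The mean log2 ratio was 0.01 ± 0.06 (SE, n = 3), with a limma adjusted p of 0.925.

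Irx5, which acts in heart repolarization and in retinal bipolar cells, lies next to Irx3 in the IrxB cluster. Its probe, A_51_P410681 at chr8:90954274-90954333, had log2 levels of 9.93, 9.81 and 9.74 in double null pools, against 9.82, 9.89 and 9.66 in double heterozygote pools. The log2 ratios were 0.11, -0.077 and 0.075, so array 2 ran against the others. The mean was 0.04 ± 0.06 (SE, n = 3), with a limma adjusted p of 0.756. Irx6, the third gene of the cluster and also known from retinal bipolar cells, had the dimmest probe of the family. Its probe, A_51_P347859 at chr8:91273231-91273290, gave 70.1, 72.0 and 79.0 units above background in double null pools, against 27.6, 42.3 and 33.5 units in double heterozygote pools. Its log2 ratios were -0.031, -0.17 and 0.096, the widest spread of the 9 probes. The scanner's own log2 ratios for it spread further, at -0.03, -0.36 and 0.37. The mean of -0.04 ± 0.06 (SE, n = 3) had a limma adjusted p of 0.788.

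**Figure D2:**
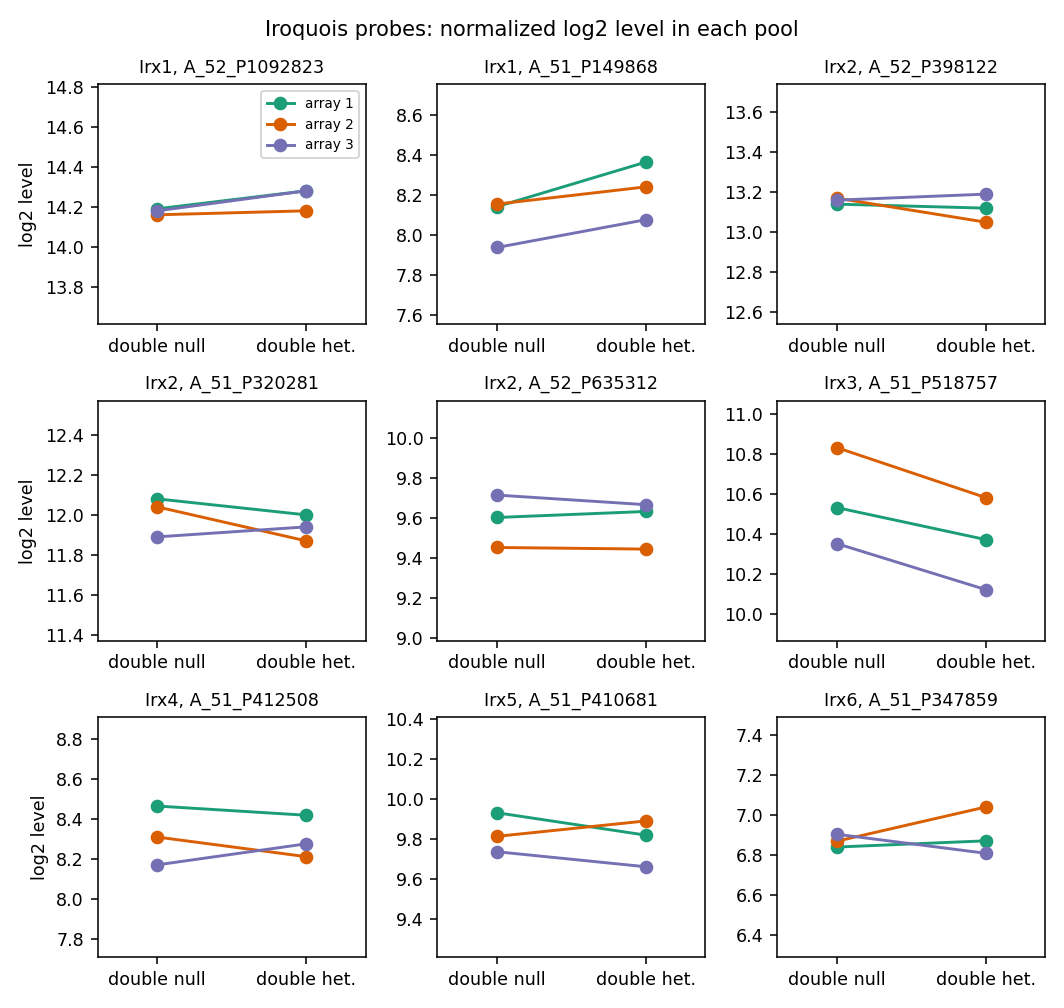
Normalized log2 level of each Iroquois probe in double null pools (left) and double heterozygote pools (right). Lines join the pools of 1 array, every panel spans the same number of log2 units, and levels of different probes are not to be compared. The lines of Irx3 all slope down to the right and those of both Irx1 probes up, and the groups overlap in every panel.

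The genes of a cluster can share regulatory sequence, so the ratios were also set out along the chromosome. The 6 IrxA probes had a median log2 ratio of 0.01 and spanned 1313 kb. The 3 IrxB probes had a median of 0.04 and spanned 881.7 kb, with Irx3 at one end. Within 1 Mb of the IrxA probes 21 other probes of 15 genes were tested, 0 of them lower and 1 higher, with a median of 0.03. Over all tested probes 0.29% were lower and 1.22% higher. The probe past the threshold, LOC674833, was named after its value was seen. Its ratios were 0.52, 0.81 and 0.59, with a mean of 0.64 ± 0.07 (SE, n = 3), a limma adjusted p of 0.00952 and a mean log2 intensity of 16.1, which is brighter than any Iroquois probe. Of the 384 probes past the threshold 225 lay above a log2 intensity of 15, and 222 of these were higher in the double null channel. At or below 15, where all 9 Iroquois probes lie, 0.643% of tested probes passed.

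Lists of genes that flank the clusters held no probe past the threshold, where 1.51% of all tested probes passed. Around IrxA the count was 0 of 10 probes of 6 genes. The brightest of these, Nsun2 at -0.05 and Med10 at -0.03, lie outside the 1 Mb window. Around IrxB it was 0 of 12 probes of 7 genes, with Aktip at -0.12 and Mmp2 at -0.07 as the brightest. All 12 are among the 22 probes within 1 Mb given below, so they are not a separate set. Among the genes nearest to the IrxA cluster, Ndufs6, a subunit of respiratory complex I, had 3 probes with log2 ratios of 0.19, 0.22 and 0.23 and adjusted p of 0.121, 0.105 and 0.101. The intervals of these probes overlap, with starts at 70251839, 70251861 and 70251833 on chromosome 13, so they do not read separate stretches of the gene. Mrpl36, a mitochondrial ribosomal protein gene beside Ndufs6, had a ratio of -0.10 with an adjusted p of 0.329. Within 1 Mb of the IrxB probes 22 other probes of 13 genes were tested, 0 lower and 0 higher, with a median of 0.01. Introns of Fto, an RNA demethylase gene, are known to hold distant enhancers of Irx3. Its 3 probes had log2 ratios of 0.08, 0.02 and -0.19, with adjusted p of 0.50, 0.918 and 0.145. The tested probes closest to Irx3 belong to transcripts named AK052999 and D230002A01Rik in the files, 6.09, 6.88 and 8.47 kb away. The AK052999 probe had a mean log2 ratio of -0.07. The D230002A01Rik probes disagreed, with means of -0.05 for the nearer and 0.21 ± 0.06 (SE, n = 3) for the farther, whose adjusted p was 0.131. Crnde, a long non-coding RNA next to Irx5, had a mean of 0.01 with an adjusted p of 0.969.

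**Figure D3:**
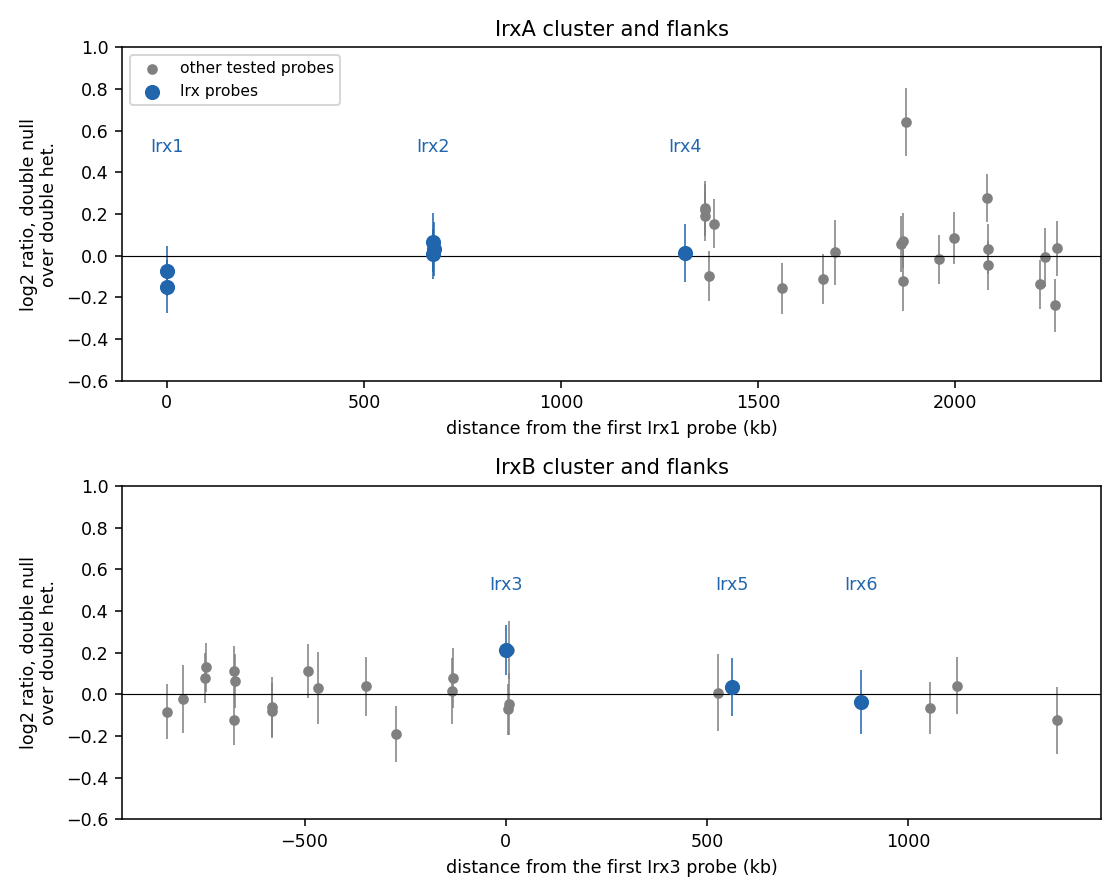
Mean log2 ratio of double null over double heterozygote, with 95% interval, for Iroquois probes (blue) and other tested probes (grey), by distance in kb along each cluster. Irx3 and Irx1 sit on opposite sides of 0, and 1 grey probe in the IrxA flank, LOC674833 at 0.64, stands above the rest.

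TALE relatives such as Pbx and Meis proteins are homeodomain partners in many tissues. Of this list all 12 genes were tested with 21 probes, and 0 were lower and 0 higher, where 1.51% of all tested probes passed. The median log2 ratio was -0.02, against 0.01 for all tested probes. The members with the brightest probes were Tgif2, a repressor in TGF-beta signalling, at -0.02 with an adjusted p of 0.89, and Meis2 at 0.15 with an adjusted p of 0.211. In a list of genes that published work ties to Iroquois proteins, as targets or as partners in patterning, 12 of 14 genes were tested with 19 probes. Of these probes 0 were lower and 0 higher, against the same share of 1.51%, and the median was 0.03. Those with the brightest probes were Egr2, the hindbrain zinc finger factor, at -0.31 with an adjusted p of 0.0835, and the retinoid receptor Rxra at -0.05 with an adjusted p of 0.638. Kcnd2 and Bmp10 were not well above background.

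In the same fit a few otic placode probes passed, though their calls depended on the setting. Over all tested probes 0.29% were lower and 1.22% higher past the threshold, the share to set beside each list count in this paragraph. Of 12 otic placode genes, 10 were tested with 16 probes, of which 3 were lower and 0 higher, with a median log2 ratio of -0.32. They included Sox9, an otic and crest factor, at -0.69 (limma adjusted p = 0.0475) and the homeobox gene Hmx2 at -0.59 (0.0229). The probes of Sox9 did not all agree, since the other 2 had ratios of -0.40 and -0.0040. Their mean log2 intensities were 12.39 and 6.99, against 12.74 for the probe past the threshold, so the probe near 0 was the dim one. Of these 3 otic calls, 0 passed with the processed signals, the series table, a normexp offset of 16, a loess span of 0.1 or probes of log2 intensity up to 15 only, and 0 passed without array 3. With median centring 1 passed, and 2 passed without array 1 or with the channels fitted separately. With the processed signals Sox9 had a ratio of -0.68 (adjusted p = 0.217) and Hmx2 one of -0.87 (0.213). The only probe of Pax2, a defining otic marker, was not well above background in either channel on any array. Whether Pax2 RNA was present cannot be told from that probe alone. No probe carried the name Foxi3. Iroquois genes are also transcribed in the hindbrain and in surface ectoderm, so markers of tissues next to the placode were read beside them. The hindbrain list had 0 of 12 probes past the threshold and array medians of -0.19, 0.01 and -0.23, with Egr2 at -0.31. The surface ectoderm list had 0 of 10 past it and array medians of -0.21, 0.02 and -0.13. Its brightest members were the keratin genes Krt18 at -0.04 and Krt8 at -0.16. All its tested probes had means below 0, from -0.30 to -0.03, with Cdh1 lowest at a limma adjusted p of 0.0862. Neural crest and head mesoderm lists had 0 of 10 probes each, with medians of -0.11 and 0.12. Their brightest members were Foxd3 at -0.24 and Erbb3 at -0.22 for crest, and Prrx2 at -0.02 and Foxc1 at -0.17 for mesoderm. Other members went the other way. Crest probes ran from -0.27 to 0.41, with Snai2 highest, and mesoderm probes from -0.17 to 0.32, with a Prrx1 probe highest. Of 5 endoderm probes 1 was lower, Sox17 at -0.54 with an adjusted p of 0.0155, which did not pass with the processed signals, the series table, a loess span of 0.1, probes up to an intensity of 15 only, separate channels, or without array 2 or 3. The blood and endothelium list had 0 of 6 past the threshold, and its array medians of 1.30, -0.14 and 0.95 differed widely between pools, with Hbb-bh1, an embryonic globin gene, at 1.43, -0.51 and 2.69 on its brighter probe and Kdr, an endothelial receptor gene, at 1.16, -0.26 and 0.18. The part of these tissues in the Iroquois ratios was not tested.

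**Figure D4:**
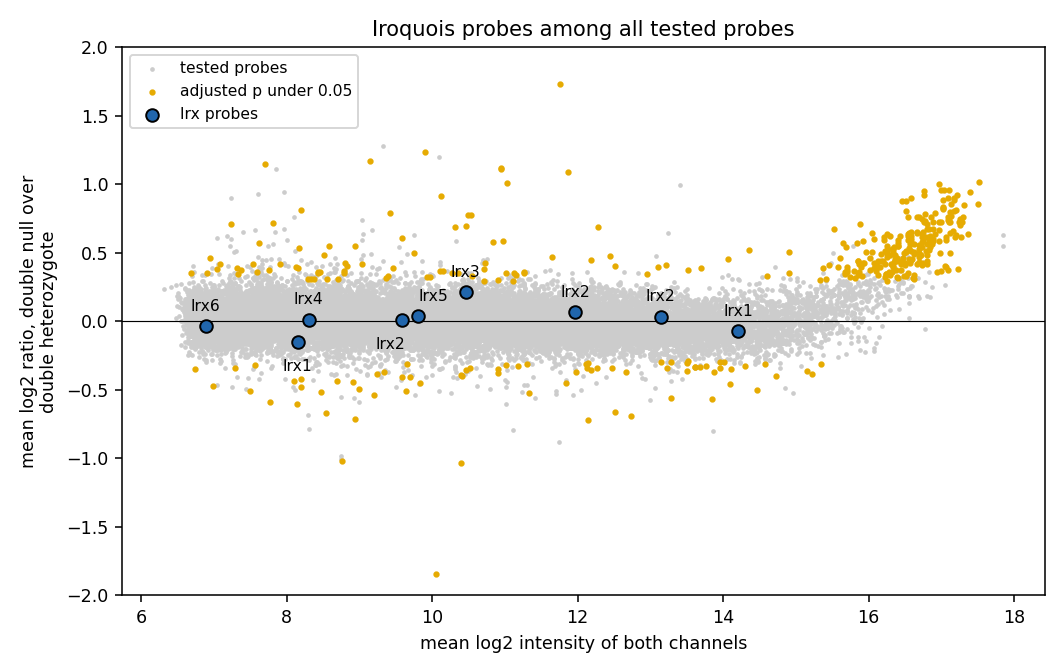
Mean log2 ratio of double null over double heterozygote against mean log2 intensity for all 25497 tested probes, with those past the threshold in yellow and Iroquois probes in blue. The Iroquois probes lie inside the grey band at all brightness levels, and most yellow points lie above a log2 intensity of 15.

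The genes whose ratios over the 3 arrays were most like those of Irx3 were sought among all tested probes with a gene name, by the root mean square difference of the 3 log2 ratios. Plekha8 came first, with log2 ratios of 0.15, 0.24 and 0.21 and a difference of 0.0122. Blvrb, which encodes biliverdin reductase B, followed at 0.0129, and Dera, an enzyme of deoxyribose phosphate breakdown, at 0.0178. None of these passed the threshold, with limma adjusted p of 0.113, 0.101 and 0.112. They were chosen for ratios close to those of Irx3, which did not pass either, so this outcome was largely set by the choice. With 3 values per probe such likeness is a description only.

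**Figure D5:**
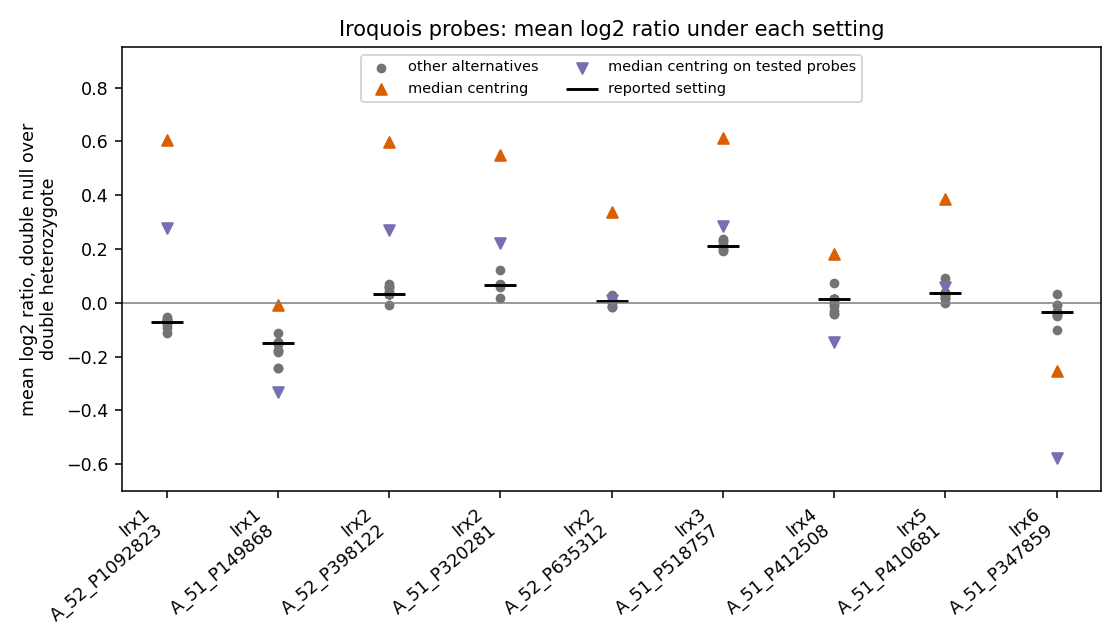
Mean log2 ratio of double null over double heterozygote for each Iroquois probe in the reported setting (black bar) and under each alternative. Without median centring the Irx3 values stay between 0.19 and 0.24 and those of both Irx1 probes stay below 0, and the median-centred values spread from -0.58 to 0.61.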

How the data were processed

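Images were quantified by the authors in Agilent Feature Extraction 9.5.1.1, per the submitters' processing notes. Mean and background intensity of each spot, as deposited, are not normalized, while the deposited processed intensity and the log10 ratio (Cy5 to Cy3) had already, per the file headers, had background removed and dyes balanced by the scanner software. The log2 ratios in the table the authors deposited for the series matched those log10 ratios, converted, within 2.01e-06. Coordinates come from the files and refer to mm7 (NCBI35). The arrays lay on the same slide and were read in the same scan session, per the file headers.

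Background was corrected by normexp (offset 50) and ratios were normalized by loess (span 0.3, controls at weight 0). Outlier-marked spots, 143 to 175 per array, were left out, and spots of a probe were averaged. A probe was tested if well above background in Cy5 on all 3 arrays or in Cy3 on all 3. A limma model (version 3.58.1, R 4.3.3; lmFit, then eBayes) compared each probe's mean log2 ratio with 0, using Benjamini-Hochberg adjustment over 25497 probes and a threshold of 0.05. Standard errors and intervals are the moderated ones. Levels per channel were computed after loess and Aquantile. The 3 arrays limit the precision, and the labels call the pools biological replicates.

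Genes were named through RefSeq records of GRCm38.p6, names only: 22951 probes by accession, 6659 by symbol, 3109 by synonym, and 8455 kept the file's name. The named genes are every Iroquois probe, up to 4 probes past the threshold from each other list (with none, the 2 brightest members), genes nearest each cluster, and the 3 probes most like the Iroquois probe with the largest ratio. Members, lists and tests were chosen with earlier results of these data known. The fit was checked on data simulated from the model's own assumptions, with no dye or intensity effect. That check cannot show whether the calls here are free of such effects. The alternatives tried are given with their effect in the closing section. Some genes that the naming rule covers and some probe sequences are not reported here.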

Additional observations from a re-analysis of the deposited data

How the results depend on the processing

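The number of Iroquois probes past the threshold was 0 in the reported setting and under every alternative but the median-centred ones. Median centring in place of loess called 8 (7 higher, 1 lower) but also 19467 of all 25497 tested probes, with a median log2 ratio of 0.33 over them. Recentred on the tested probes, an alternative chosen after seeing the data, it called 6 Iroquois probes (4 higher, 2 lower) and 13914 of all. The brighter Irx1 probe then turned to 0.60 and 0.28, and Irx4 to -0.15 when recentred; the cause was not tested. The number of all probes past the threshold was 384 (80.7% higher), and became 199 with a normexp offset of 16 (90.5% higher), 31 with a loess span of 0.1, 994 when the prior followed intensity (64.1% higher), 185 when channels were fitted separately, without the array as a block (no replicate block; 93.5% higher), 1080 at an adjusted p under 0.10 (65.2% higher) and 21 among probes of log2 intensity up to 15 (95.2% higher). The processed signals and the series table each called 0 with limma, with 4418 and 4472 probes at an unadjusted p under 0.05. Leaving out 1 array gave 86 (without array 3) to 305 calls, and 0 Iroquois probes.

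Irx3 kept its sign in 19 of 19 alternatives, with adjusted p from 0.0688 to 0.679 without median centring. Near 0, the Irx2 probe A_52_P635312 turned to -0.00012 with the offset of 16 and to -0.017 with the processed signals and the series table. Irx4 turned to -0.041 in those last 2 and to -0.012 with the loess span of 0.1. With 1 array left out, signs also turned for Irx4 (-0.030 to 0.072), Irx5 (-0.0010 to 0.093), Irx6 (-0.10 to 0.032) and the Irx2 probes A_52_P398122 (-0.0099 to 0.068) and A_52_P635312 (-0.012 to 0.028).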
